A study of Drosophila melanogaster with 4 samples.

Results

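The 461 regions described here are the peaks on the X chromosome in a genome-wide map of the protein CG8478 in the S2-DRSC line, male Drosophila melanogaster cells derived from late embryos. They were chosen by chromosome name alone, with no measured value, from a list of 3284 peaks, of which 2938 lay on X or on the autosomal arms 2L, 2R, 3L, 3R and 4. The map was made by ChIP-seq, in which DNA fixed to a protein by formaldehyde is recovered with an antibody and sequenced. The series has 2 ChIP libraries, made with the rabbit polyclonal antibody KW3-CG8478-D1, and 2 libraries of input DNA from the same line, without any genetic change or treatment in the labels. The deposited values are a single list that gives each peak a start, an end and a score, with no value per library. Depth per library and replicate error are therefore unknown here, no p-value is given, and the intervals on shares cover counting error only. Whether a given call marks DNA bound by the protein was not tested. Positions are 1-based on FlyBase release 5.

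The fragment of CG8478 used to raise the antibody contains a C2H2 zinc finger, a small fold held by a zinc ion that many DNA-binding proteins use to contact DNA. The X chromosome of a male fly cell is set apart from the autosomes by dosage compensation, in which the MSL complex binds along X and raises transcription of its genes to balance their lower copy number. Coordinates on X run from the tip of the chromosome towards the centromere. The copy number of X in these cells is not among the values analysed. Genes at the peaks were not analysed here.

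The X peaks gathered in a few places and left most of the chromosome thinly marked. In windows of 1 Mb, the 5 fullest of 23 windows held 278 peaks, 60.3% of the peaks on X (Wilson 95% interval 55.8 to 64.7%). The window from 3 to 4 Mb had 86 peaks, that from 9 to 10 Mb had 73 and that from 10 to 11 Mb had 60. The window from 19 to 20 Mb followed with 32, and those from 2 to 3 Mb and from 12 to 13 Mb had 27 each. The median whole window had 13.5 peaks, so the fullest one stood far above the middle of the chromosome's own range. At the low end, the windows from 8 to 9 Mb and from 15 to 16 Mb held 3 peaks each, and 7 of the 22 whole windows held 5 or fewer. The last, partial window, from 22 Mb on, also held 3.

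On a finer scale, 112 of 219 windows of 100 kb (51.1%) held no X peak. The 14 fullest of them, 6.39% of the windows, were enough to hold 50% of the peaks. Windows with 10 or more peaks numbered 15 and held 248 peaks, 53.8% of those on X. They fell into a few neighbourhoods: 1 window in the Mb after position 2 Mb, 4 in that after 3 Mb, 3 in that after 9 Mb, 4 in that after 10 Mb, and 1 each in those after 12, 14 and 19 Mb. The median distance between the midpoints of neighbouring X peaks was 3551 bp, with quartiles of 1216 and 24512 bp, so close pairs and long empty stretches were both common.

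**Figure D1:**
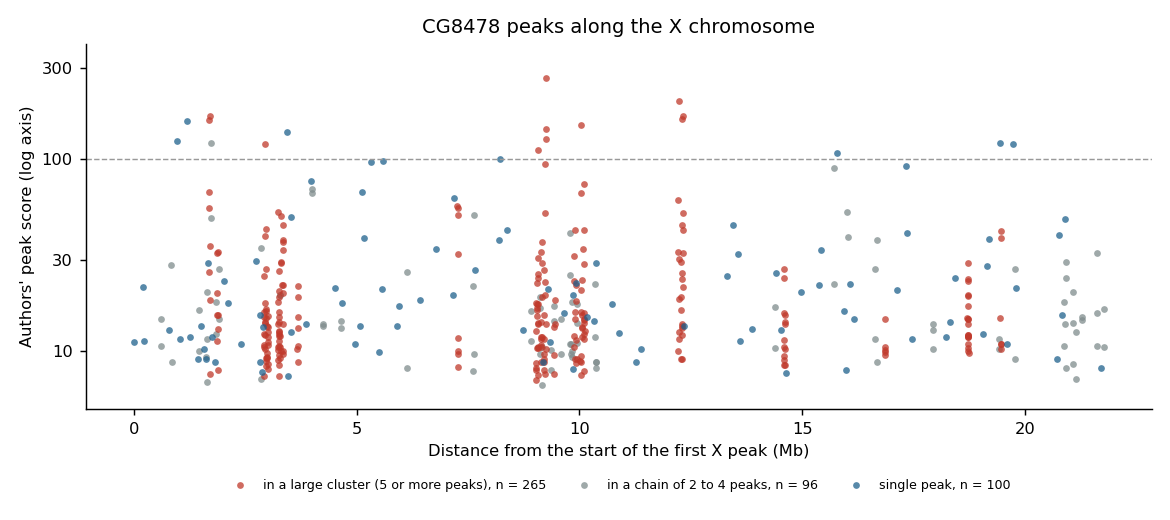
Each point is 1 of the 461 X peaks, placed by its distance in Mb from the start of the first X peak and by the authors' score on a log axis, with colour for peaks in large clusters (265), in chains of 2 to 4 peaks (96) and alone (100). The red columns are the crowded segments, and the blue points above the dashed line at a score of 100 are the 7 strong single peaks outside them.

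Joined over gaps of up to 100 kb, the X peaks formed 68 stretches, and 6 of these had 20 or more peaks. Together the 6 held 267 peaks, 57.9% of those on X, in 2.00 Mb, 9.18% of the length between the first and the last X peak. The fullest stretch spanned 9344864 to 9770861, and had 67 peaks over 426 kb. Next came 10105207 to 10496687 with 53 peaks over 391 kb. The stretch of 67 also held the highest score on X. In the Mb after 3 Mb lay a pair of stretches, 3055703 to 3343391 with 41 peaks and 3565945 to 3859369 with 44. The stretch nearest the tip spanned 1774901 to 2230771 and held 35 peaks. The shortest, 12535726 to 12679385, held 27 peaks in 144 kb and had a median score of 21.67, above the 12.64 to 15.38 of the other 5.

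Of the 5 longest gaps, only the longest and the one ranked 3 bordered a stretch of 20 or more peaks, and both bordered the same one. No peak was called in the 954 kb between 12679385 and 13633568, directly after the stretch near 12.6 Mb, nor in the 824 kb between 11711800 and 12535726, directly before it. That group of 27 peaks was thus followed by the longest gap on X and preceded by the one ranked 3. The other long gaps were 923 kb between 20123243 and 21045992, 531 kb between 7987713 and 8518847, and 512 kb between 14204148 and 14715692. The 5 gaps together made up 17.2% of the length from the first to the last peak. Whether reads align to these gaps as well as elsewhere could not be seen in a list of peaks. The first X peak, 328072 to 328459, scored 11.15, and the last, 22101932 to 22103064, scored 16.63, so neither end of the listed range carried a strong peak.

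To describe the crowding in detail, neighbouring calls no more than 10 kb apart were linked into chains, and large cluster means a chain that holds 5 peaks or more. X had 25 large clusters with 265 peaks, 57.5% of its peaks, in a summed span of 608 kb, which is 2.79% of the length between the first and last X peak. The clusters ranged from 6.73 to 65.4 kb in span, with a median of 22.2 kb. Called peaks covered from 12.3 to 81.8% of a cluster, with a median of 28.7%, so most of the sequence inside a typical cluster lay between calls. The share of X peaks in large clusters was 32.9% with calls within 1000 bp merged and 36.5% in the upper 1642 of the whole list by score. The remaining X peaks were 100 single peaks, 32 pairs, 8 chains of 3 and 2 chains of 4.

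The 4 clusters of 19 or more peaks held 88 peaks, 19.1% of those on X. The one with the most, 24 peaks, spanned 3565945 to 3598656 and was almost entirely weak. Its median score was 12.17, its highest was 53.25 at 3570615 to 3572073, and the second highest was 26.25. The cluster of 23 peaks at 3237853 to 3303204 had the longest span on X and a median score of 14.15. It held 1 peak that stood apart, at 3274202 to 3276851 with a score of 119.95, beside a wide weaker peak at 3271437 to 3274130 with a score of 39.75. The cluster of 22 peaks at 9344864 to 9398448 was built in a like way, with a score of 112.19 at 9395113 to 9396993 and 30.81 as its second highest. In the cluster of 19 peaks at 19029452 to 19062368 no peak stood apart, and its scores ran from 9.74 to 28.69.

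Of the other 7 clusters with 10 or more peaks, 3 had 13 peaks each. The cluster at 10347736 to 10390882 had a highest score of 151.47 and a second highest of 66.68. The cluster at 12609867 to 12633511 reached 162.71, with 45.54 as its second highest. The cluster at 14915290 to 14946499 reached only 26.79, so clusters of equal size differed widely in their highest score. The 2 clusters of 12 peaks lay at 9522939 to 9561922, with a highest score of 94.96, and at 10418357 to 10447439, with a highest score of 74.42. The 2 clusters of 11 peaks lay at 9467145 to 9481082, with a highest score of 37.13, and at 3321146 to 3343391, with one of 15.26. In the last of these, the widest peak was 327 bp and called sequence made up 12.3% of the span, the lowest coverage among the large clusters on X.

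**Figure D2:**
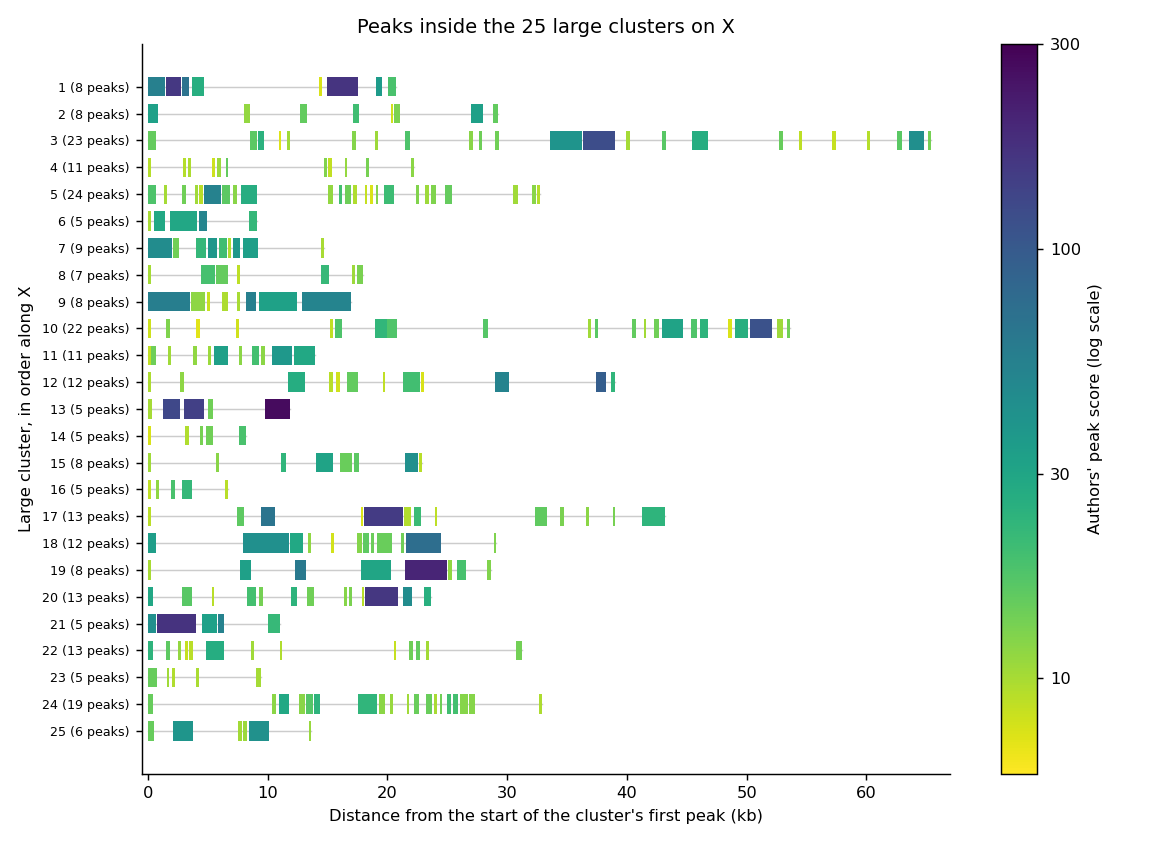
Each row is 1 of the 25 large clusters on X in order along the chromosome, with its peaks drawn to scale as bars by their distance in kb from the start of the cluster's first peak and coloured by the authors' score on a log scale. Darker bars have higher scores, on a continuous scale without a break at 100. Scores of 100 or more occur in 8 rows, 7 rows have no peak that reaches 30, and row 9 is the cluster in which 81.8% of the span was called.

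Large clusters on X therefore came in several forms. At least 1 peak with a score of 100 or more was present in 8 clusters, the highest score lay between 30 and 100 in 10, and no peak reached 30 in 7. The highest-scoring peak was the first or last of its cluster in 5 of the 25, and lay inside it in the other 20. With 25 first and 25 last peaks among the 265 in large clusters, that is near the share of such end positions. The median gap between neighbouring calls, taken as the middle value over clusters, was 941 bp. A cluster at 7588131 to 7605072 differed from the rest in its coverage. It held 8 peaks that filled 81.8% of 16.9 kb, with wide calls of 3567, 3161 and 4078 bp whose scores were only 56.89, 32.00 and 51.31. The widest of these was also the widest peak on X.

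The strongest X peaks lay both inside the large clusters and far from any other call. The 20 of highest score ranged from 98.5 to 266. Of these, 11 lay in large clusters, 8 were single peaks and 1 belonged to a pair. Over all 461 X peaks, 57.5% lay in large clusters, 21.7% were single and 96 peaks lay in chains of 2 to 4. The count in large clusters was thus near the share over all X peaks, while single peaks were more frequent among these 20. The highest score on X, 265.52, belonged to the peak at 9586470 to 9588597, the last of 5 in its cluster. It lay 4344 bp beyond a weak call, and the same cluster held a further pair of strong neighbours at 9577979 to 9579368 with a score of 127.64 and at 9579738 to 9581444 with a score of 143.27, which were 369 bp apart. A score of 100 or more was thus reached 3 times within 11.9 kb, the only large cluster on X with that many.

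Near 12.6 Mb, 3 strong peaks lay in neighbouring clusters, each in a cluster of its own. The peak at 12557189 to 12560668 scored 201.03 and lay among 8 peaks, with a next highest score of 61.78. The peak at 12628015 to 12630762 scored 162.71 among 13 peaks. The peak at 12645228 to 12648483 scored 168.52 among 5, of which the lowest still scored 21.67. All 3 were wide, from 2748 to 3480 bp. Near 2.0 Mb the arrangement was tighter. The peaks at 2016891 to 2018163 (score 160.24) and 2030302 to 2032935 (score 167.68) shared a cluster of 8, and the peak at 2051636 to 2053094 (score 121.55) followed in a separate pair, which began 13687 bp past the end of that cluster. Calls right beside a strong peak could be far weaker: at 10365783 to 10369084 the score was 151.47, while the calls 51 bp before it and 76 bp after it scored 7.50 and 9.39.

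Strong X peaks differed in how closely other calls flanked them. Of the 19 X peaks with a score of 100 or more, 7 had another call within 200 bp, 10 had one within 500 bp and 12 had one within 5 kb. The matching shares over all X peaks were not counted. These counts therefore do not show whether strong peaks had calls within such distances more or less often than other X peaks. The other 7 had none within 10 kb, a larger share than the 21.7% of all X peaks that were single. No strong X peak had its nearest call between 5 and 10 kb away, a range that held few X peaks of any score. Among the 12 with a call within 5 kb, the median score of such calls ran from 9.11 to 55.78. How a stretch of enrichment is divided into calls can set such counts, and 64 of the 460 gaps between neighbouring X peaks (13.9%) were 200 bp or shorter, the shortest being 51 bp.

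The 10 strongest single peaks on X scored from 92.49 to 159.19 and were between 11.4 and 152 kb from the next call. The strongest, at 1515109 to 1517816, had a score of 159.19 and lay 70.0 kb from its nearest neighbour. It was also the widest of the 10, at 2708 bp. The next was at 3754845 to 3755700, which scored 138.60, was 856 bp wide and lay inside the crowded stretch that ends at 3859369 yet 19.2 kb from any other call. Those at 1292985 to 1294249 (score 125.34), 19760153 to 19761308 (at 122.30) and 20052920 to 20053879 (at 120.04) followed. The peak at 16110768 to 16111852 scored 107.44, and that at 8544787 to 8545631 scored 100.95 in one of the emptiest Mb of the chromosome. The last 3 of the 10 lay at 5907056 to 5907789, which scored 98.47, at 5640529 to 5641276, which scored 96.69, and at 17662120 to 17662626, which scored 92.49. The most isolated was the one at 5640529, with 152 kb to the nearest call. Between 5 and 6 Mb all 8 peaks were single, and their median score of 30.17 exceeded the 13.4 of the crowded window from 3 to 4 Mb. The other windows with only single peaks held 3 or 4 peaks each and varied. Their median scores were 42.82 (8 to 9 Mb), 28.37 (13 to 14 Mb), 22.09 (15 to 16 Mb) and 11.41 (11 to 12 Mb).

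Many single peaks were weak all the same, though less often than X peaks as a whole. Of the 100 single X peaks, 56 scored under 20 and 14 scored 50 or more. Among all 461 X peaks, a score of 50 ranked 44 and a score of 19.7 ranked 150. The median score was 13.97 for X peaks in large clusters (quartiles 10.47 and 23.58, 265 peaks) and 17.4 for single X peaks (quartiles 11.8 and 30.3, 100 peaks). The difference was -3.48, and the range that the exact binomial 95% intervals of the medians allow for it, -8.03 to 1.45, includes 0. With chains limited to gaps of 5 kb it was -1.43. Chains of 2 to 4 peaks had a median score of 14 (96 peaks), close to that of the large clusters. On the long autosomal arms the same difference was -3.66 on 2L, -1.52 on 2R, -2.82 on 3L and -4.16 on 3R, so its sign was the same on each arm and X lay inside their range. Peaks of 1 cluster are not independent, and no test of these differences was made. In the 32 pairs, the median score was 18.03 for the stronger member and 10.54 for the weaker, and 16 of the pairs were separated by no more than 1000 bp.

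X peaks with higher scores were wider. With the peaks split by score into 4 groups of 115 or 116, the median width was 253.5 bp in the lowest group (6.64 to 10.53), 319 bp in the next (10.56 to 14.3), 523 bp in the one above (14.3 to 24.06) and 964 bp in the highest (24.23 to 265.52). Over the 461 X peaks, width and score had a Spearman's rho of 0.78. On 2L, 2R, 3L and 3R rho was 0.74, 0.77, 0.72 and 0.76, so the relation was not particular to X. The peaks share their libraries and are not independent, so rho carries no p-value. The narrowest calls were 201 bp, a width shared by 7 peaks on X. A width of 1 kb or more was reached by 71 X peaks, 15.4% (Wilson 95% interval 12.4 to 18.98%), with scores from 11.70 to 265.52 and a median of 33.01. Of these wide peaks 50 lay in large clusters and 9 were single.

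Strong peaks differed in width by their surroundings. Among X peaks with a score of 100 or more, the 11 in large clusters were 1273 to 3480 bp wide with a median of 2634 bp, and the 7 single ones were 845 to 2708 bp wide with a median of 1085 bp. The ranges overlapped through the 1 single peak at 1515109, and the other 6 single peaks were narrower than every strong clustered peak on X. The median score also differed, at 160.24 for the clustered and 122.30 for the single peaks, so width and score moved together here and their parts were not separated. In the band from 50 to under 100, the medians were 1109 bp for 13 clustered and 580 bp for 7 single X peaks, while the median scores ran the other way, at 55.78 and 77.62. On the autosomal arms, peaks of 100 or more had median widths of 1618.5 bp in large clusters (20 peaks) and 901 bp when single (19 peaks), the same order as on X. All 7 X peaks of 3 kb or more lay in large clusters, and only 3 of them scored 100 or more.

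**Figure D3:**
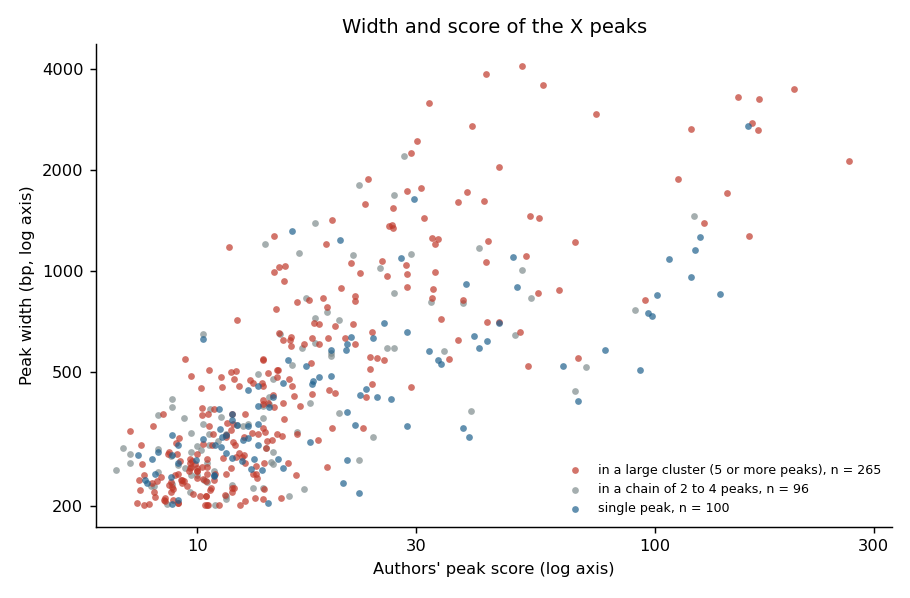
Each point is 1 X peak, with the authors' score on the horizontal and width in bp on the vertical axis, both logarithmic, coloured by the kind of chain it belongs to. Points with higher scores lie higher, and at scores of 100 or more 6 of the 7 single peaks lie below all 11 peaks in large clusters.

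Beside the other long arms, X had a larger share of its peaks in large clusters and in its fullest windows, but not a larger share of close neighbours. The share in large clusters was 57.5% on X (Wilson 95% interval 52.9 to 61.9%), and 39.9, 52.8, 50.7 and 44.3% on 2L, 2R, 3L and 3R. The interval on X overlapped those of 2R (49.2 to 56.4%) and 3L (46.6 to 54.9%), and lay above those of 2L and 3R. The short chromosome 4 had 59.3% of its 27 peaks in 1 large cluster, with an interval of 40.7 to 75.5%. The 5 fullest windows of 1 Mb held 60.3% of the peaks on X, with 23 windows, and 52.0, 44.5, 49.1 and 38.3% on 2L, 2R, 3L and 3R, with 23, 22, 25 and 28 windows. Empty windows of 100 kb made up 51.1% on X, and 49.1, 29.9, 45.7 and 36.4% on the same 4 arms. By these 3 counts X was the highest of the 5 long arms. Such counts also depend on how densely peaks lie on an arm. Between the first and the last peak there were 21.2 peaks per Mb on X. The densities on 2L, 2R, 3L and 3R were 17.1, 35.4, 22.7 and 27.5. The part of density in the order of the arms was not separated. Cluster shares under other definitions are given for X only, so whether the order would hold under them is not shown. Counts of neighbouring peaks gave another order. Gaps of up to 10 kb made up 63.9% of the gaps on X and 56.5, 66.8, 63.6 and 62.7% on 2L, 2R, 3L and 3R, and gaps of up to 1000 bp made up 34.8% on X and 31.2, 38.4, 36.4 and 32.6% on the same arms. The median spacing of 3551 bp on X was longer than the 3274 bp on 2R and shorter than on the other 3. Single peaks made up 21.7% on X, below 2L (25.3%) and above 2R, 3L and 3R (16.7, 19.96 and 19.3%). Neighbouring peaks share a cluster, so the intervals are too narrow, and no test of X against the other arms was made.

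The share of strong scores was also higher on X, with intervals that overlapped. A score of 100 or more was given to 19 X peaks, 4.12% (Wilson 95% interval 2.65 to 6.35%), and to 55 of 2477 autosomal arm peaks, 2.22% (1.71 to 2.88%). Over the single arms the shares were 4.12% on X and 1.57 to 2.61% on the long autosomal arms, with none of 27 peaks on chromosome 4, a count that allows a share of up to 11.1% (3 counts). Of the 100 highest-scoring arm peaks 24 lay on X (interval 16.7 to 33.2%), and of the highest 1000 there were 162 (16.2%), near the 15.7% of all arm peaks that X held. The share on X was thus higher among the strongest calls than further down the list. At the 95th percentile the score was 90.4 on X and 67.9 on the autosomal arms, while at the 90th it was 45.5 on X and 43.9 on the autosomal arms. Of the strong X peaks 11 lay in large clusters, 4.15% of the peaks there (2.33 to 7.28%), against 1.69% (1.10 to 2.59%) in large clusters on the autosomal arms. For single peaks the shares were 7% on X (3.43 to 13.7%) and 3.93% on the autosomal arms (2.53 to 6.06%). These differences were not tested, and strong X peaks that share a cluster, such as the 3 near 9.58 Mb, are not independent.

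**Figure D4:**
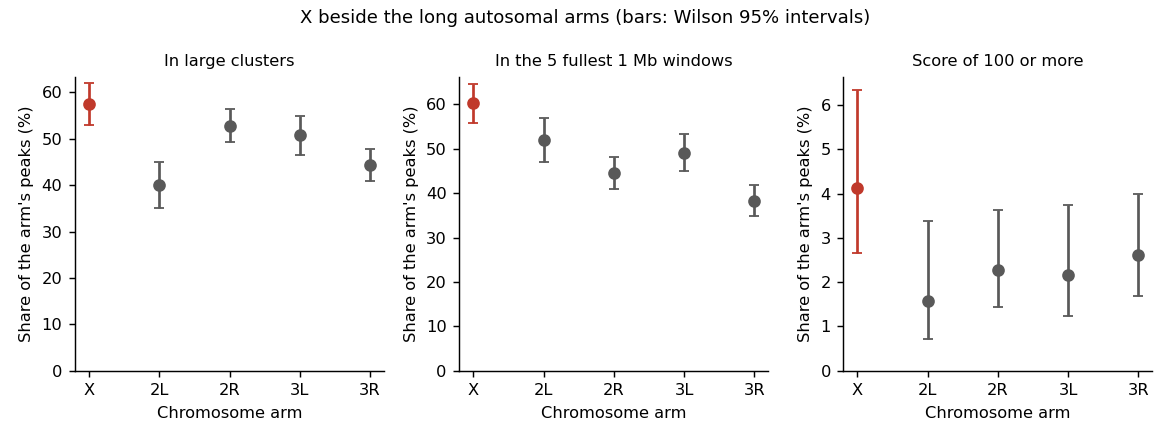
Points give, for X and the 4 long autosomal arms, the percentage of peaks on the arm that lie in large clusters, in the 5 fullest windows of 1 Mb, or have a score of 100 or more, and bars are Wilson 95% intervals, with X in red at the left of each panel. Among these 5 arms X is the highest point in each panel, at 57.5, 60.3 and 4.12%, and its interval overlaps those of at least 1 other plotted arm in each.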

How the data were processed

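The processed data are 1 peak list of the whole series. Its build is FlyBase release 5, per the file headers, and its source column names MACS. The submitters' processing notes name BWA, MACS2, BDGP5 and CASAVA in versions 1.7.0.3 and 1.7.0.2, without roles. The sources used here do not give the threshold of the calls, the use of input as control or any pooling of replicates. The score is the value the authors deposited for each peak. Which statistic it is remains unstated, so it serves only to describe and rank peaks within this list. The difference in mean log2 score given at the end is the only ratio of scores, on a log scale. Its meaning depends on that unstated statistic.

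Rows with X as chromosome name were taken without a filter. Chains, windows, gaps and merged lists were computed with pandas 2.3.3, scipy 1.17.1 and numpy 2.4.6 under Python 3.11.15, and tested on simulated lists. Shares have Wilson and medians exact binomial 95% intervals. Peaks named are the 20 highest-scoring on X, the 10 highest-scoring single ones, the widest, first and last, and segments are clusters of 10 or more peaks, the fullest and emptiest windows and the 5 longest gaps. Other peaks and clusters named, the stretches joined over 100 kb, the windows of 100 kb, the flanks of strong peaks and the widths by class were chosen after their values were seen. The members, definitions and lists were chosen with earlier results of these data known. Sequence at the peaks was not analysed here.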

Additional observations from a re-analysis of the deposited data

How the results depend on the processing

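The share of arm peaks on X stayed within its interval under each alternative list. The number of X peaks, 461, was 301 with calls within 1000 bp merged and 233 in the upper 1642 of the whole list by score, both smaller by construction. The median spacing on X, 3551 bp, was 6351 bp with calls within 200 bp merged, 14081 bp within 1000 bp and 13416.5 bp in the upper list. The share of X peaks in large clusters, 57.5%, was 45.6% with at most 5 kb and 69.0% with at most 20 kb between calls, 50.9 and 32.9% with merging at 200 and 1000 bp, 36.5% in the upper list, and 48.2% with large clusters counted from 8 peaks on, so its size is set largely by the definition. The limit of 8 peaks, and one of 4 that left the share within its interval, were added after seeing the data. The share in the 5 fullest windows stayed within its interval. The score difference of large clusters minus single peaks was -3.48. It was -1.43 with at most 5 kb and -3.48 with at most 20 kb between calls, and -0.27 in mean log2 score, so the sign was the same but the limit of 5 kb left a much smaller difference. The cause was not tested. No paired analysis was possible because the libraries have no values of their own in the peak list, so no fit without a replicate could be made either.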
